A study of Mus musculus with 12 samples.

Results

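Collagens are the proteins of the fibres, networks and filaments of the extracellular matrix, and fibroblasts are a main source of them. Their genes were examined here in cultured mouse embryonic fibroblasts of 2 genotypes. Every probe set with a single gene symbol of the form Col, number, a, number was taken, which gave 46 probe sets for 44 genes, out of 21789 such probe sets for 19938 genes. Where a gene had several probe sets, the brightest on average stood for it. Of the 44 genes 11 encode fibrillar collagens, 6 basement membrane collagens, 6 type VI collagens, 9 FACIT collagens (fibril-associated collagens with interrupted triple helices) and 12 other collagens.

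The 12 arrays held total RNA from wild-type fibroblasts and from fibroblasts labelled MLL1-KO, sampled 18 h and 30 h after a 2 h shock of 50% horse serum, with 3 arrays in each of the 4 groups. All groups had grown in DMEM with 5% FBS and 5% NCS, and all received the shock, which aligns the circadian clocks of cultured cells, so no unshocked group was compared. MLL1 is a histone methyltransferase encoded by Kmt2a. The labels give no embryo age, strain, part of the gene deleted or number of cell lines, so effects of the knockout and of the history of a line cannot be told apart. Nothing in them states that replicates were grown separately, and every p-value below covers only array-to-array spread, which can be technical.

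A collagen molecule is a triple helix of 3 chains, and the chains of one molecule are often products of different genes. The chains are hydroxylated and folded in the endoplasmic reticulum, secreted as procollagen, trimmed of their propeptides and crosslinked outside the cell. Fibroblast matrix is built mainly from type I, III and V fibrils, a beaded filament network of type VI, and a basement membrane sheet of type IV where cells form one.

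Array medians lay between 273 and 312 in intensity, the unit of every level below, and arrays of one group correlated at 0.984 to 0.996 across the 13956 genes tested. Kmt2a had an intensity of 2396 ± 379 in wild type against 2085 ± 112 in knockout at 18 h (adjusted p = 0.108), and of 2118 ± 44.2 and 1429 ± 134 at 30 h (SD, n = 3 each; adjusted p = 0.000111), and where its probes lie relative to the disrupted part is not known, so it does not check the labels. Of 10 fibroblast markers 9 were measured and 6 tested, of which 4 were lower and 1 higher in knockout at 18 h and 4 lower and 2 higher at 30 h. The intermediate filament gene Vim, at 15027 to 16931 in the group means, moved least of the tested markers that were called at both times, while the matrix gene Lum (group means of 41.8 to 46.6) and the protease gene Fap (48.3 to 67.9) were dim in all 4 groups. The growth factor receptor genes Pdgfra and Pdgfrb had 3811 ± 212 and 3254 ± 219 in wild type against 395 ± 42.9 and 1055 ± 230.5 in knockout at 18 h, and S100a4 had 5734 ± 192 against 2054 ± 586. The matrix gene Dcn went the other way, from 423 ± 88.8 to 5766 ± 276, and Postn, which was not tested, had 939.8 ± 77.2 against 22.7 ± 12.1 (SD, n = 3 each). The summed level of the 9 was 30501 to 31292 and 31008 to 31695 in wild type at 18 h and 30 h and 24115 to 25038 and 25737 to 27610 in knockout, a sum that Vim dominates, and the part of these markers in the differences below was not tested. None of the tested epithelial (6 of 8 in the list), endothelial (1 of 8) or neural crest and glial (3 of 6 measured) markers was called between genotypes at either time, against 2, 0 and 0 at an unadjusted p under 0.05 at 18 h and 0, 1 and 0 at 30 h by limma. Some untested, dim members of these lists did differ in level between wild type and knockout at 18 h. Kdr had 89.6 ± 11.1 against 290 ± 60.7, Erbb3 106 ± 5.17 against 284 ± 7.29 and Epcam 144 ± 15.8 against 185 ± 7.89. Cdh19 went the other way, with 80.3 ± 2.29 against 36.6 ± 3.59 (SD, n = 3 each). At 30 h Kdr had 92.3 ± 10.6 against 130 ± 17.3 and Erbb3 119 ± 12.4 against 170 ± 5.72. Epcam then had 143 ± 8.80 against 142 ± 1.39 and Cdh19 64.3 ± 7.32 against 42.5 ± 5.37 (SD, n = 3 each). Of 4 tested smooth muscle and pericyte markers 2 were higher at 18 h and 1 was higher and 1 lower at 30 h. Of 4 tested macrophage and blood markers 1 was higher at each time, Cd68 at 18 h and Cd14 at 30 h. Cd68 had 1175 ± 47.3 against 2305 ± 873 at 18 h and 934 ± 124 against 805 ± 108 at 30 h. Cd14 had 171 ± 3.88 against 282 ± 52.3 at 30 h (SD, n = 3 each). Its wild-type means, 169 and 171, were below the filter on dim genes (175). Cd14 was thus tested only through knockout and is no support for that count.

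Knockout and wild type were compared at each time on log2(intensity + 16), and every log2 difference below is on that scale. A gene was called where limma's adjusted p, over all 13956 genes, was under 0.05. Of the 44 collagen genes 43 passed the filter on dim genes and were tested. The basement membrane gene Col4a6 did not pass, at 118 to 167 over all arrays. At 18 h 19 of 43 were called, 12 higher and 7 lower in knockout, where 60.1% of all genes tested were called, 26.3% higher and 33.8% lower. At 30 h 18 of 43 were called, 9 higher and 9 lower, where 52.9% of all genes were called, 24.3% higher and 28.6% lower. The collagen share, 44.2% and 41.9%, was below that of all genes at both times. A difference of at least 2-fold among called genes was found in 8 members at 18 h (14.4% of all genes), 2 of them higher (6.36%) and 6 lower (8.07%). At 30 h it was found in 7 (11% of all genes), 1 of them higher (4.78%) and 6 lower (6.23%). Wild-type and knockout arrays were fully separate in 21 of 43 members at 18 h and in 18 of 43 at 30 h, against 63.1% and 61.4% of all genes. Averaged over both times 20 of 43 were called, 11 higher and 9 lower, where 65.2% of all genes were called, 29.4% higher and 35.8% lower, and 7 differed by at least 2-fold, against 11.8% of all genes.

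**Figure D1:**
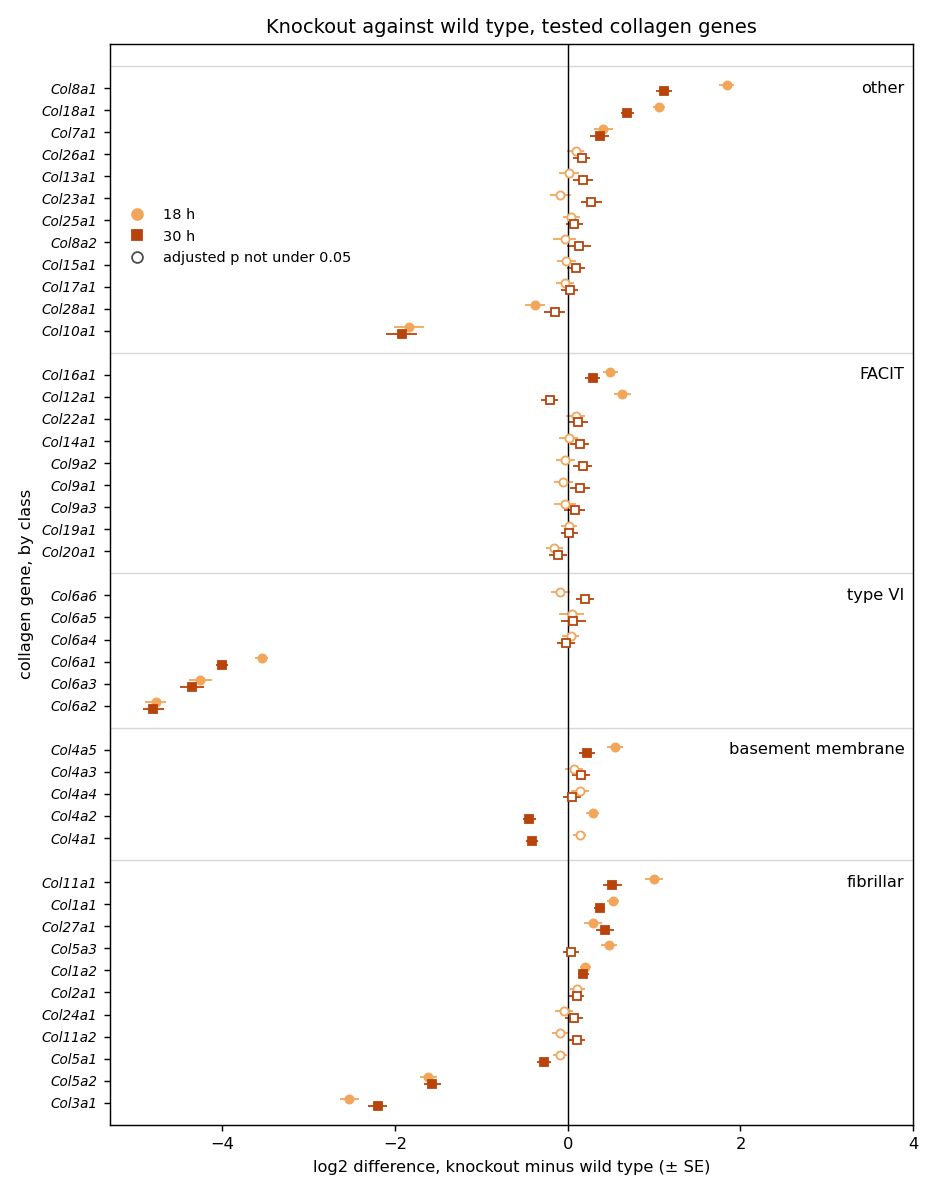
Log2 difference, knockout minus wild type, with its standard error (horizontal axis), for the 43 tested collagen genes by class (vertical axis), at 18 h (circles) and 30 h (squares). Filled points had an adjusted p under 0.05. Col6a1, Col6a2 and Col6a3 lie between -3.54 and -4.80, and Col8a1 is the highest, at 1.84 at 18 h.

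Type VI collagen had the largest differences in the family. Its 3 classical chains, Col6a1, Col6a2 and Col6a3, assemble with each other into the tetramers of the beaded filament, and all were lower in knockout at both times by more than 10-fold. The alternative chains Col6a4, Col6a5 and Col6a6, which are related to Col6a3, were called at neither time. The class therefore had 0 higher and 3 lower of 6 tested at each time, also at an unadjusted p under 0.05 by limma. Over all genes 33.8% and 28.6% were called lower. The median log2 difference of the class was -1.81 at 18 h and -2.01 at 30 h, beside -0.03 and 0.02 over all genes. It falls between the 3 classical and the 3 alternative chains and is near the value of none of them. In these RNA pools fewer cells of a type and less RNA per cell cannot be told apart.

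Col6a1 had 10036, 10996 and 11270 in wild type at 18 h and 10954, 11275 and 10649 at 30 h, against 948, 907 and 871 in knockout at 18 h and 604, 715 and 692 at 30 h. Every knockout array lay more than 10-fold below every wild-type array. The log2 difference was -3.54 ± 0.073 (SE) at 18 h (adjusted p = 4.25e-16) and -4.00 ± 0.073 at 30 h (adjusted p = 1.12e-16). Col6a2 had 9054, 10029 and 10567 (18 h) and then 10064, 10464 and 9907 (30 h) in wild type, and 406, 313 and 326 (18 h) and then 287, 342 and 432 (30 h) in knockout. It had the lowest log2 differences of the family at both times, -4.77 ± 0.121 at 18 h (27.3-fold, adjusted p = 3.9e-15) and -4.80 ± 0.121 at 30 h (27.8-fold, adjusted p = 4.25e-15). Col6a3, which encodes the longest of the 3 classical chains, had 8558, 9361 and 8484 (18 h) and then 8113, 8696 and 8265 (30 h) in wild type. In knockout it had 459, 502 and 386 at 18 h and 289, 430.3 and 488 at 30 h. Its log2 differences were -4.25 ± 0.138 (adjusted p = 8.39e-14) and -4.35 ± 0.138 (adjusted p = 6.77e-14). The files hold no detection call, so whether the knockout values of these genes are above background is not known, and the folds of dim genes depend on the offset. With offsets of 64 and 1 the difference of Col6a2 at 18 h was -4.60 and -4.83.

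The 3 alternative chains had similar values in all groups. Col6a4 ranged from 376 to 486 over the 12 arrays, Col6a5 from 201 to 343 and Col6a6 from 296 to 410. Col6a5 and Col6a6 each have a second, dimmer probe set, which moved by 0.18 and -0.24 at 18 h and by 0.15 and 0.05 at 30 h and was not tested. Probes of these related genes may read more than one of them.

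**Figure D2:**
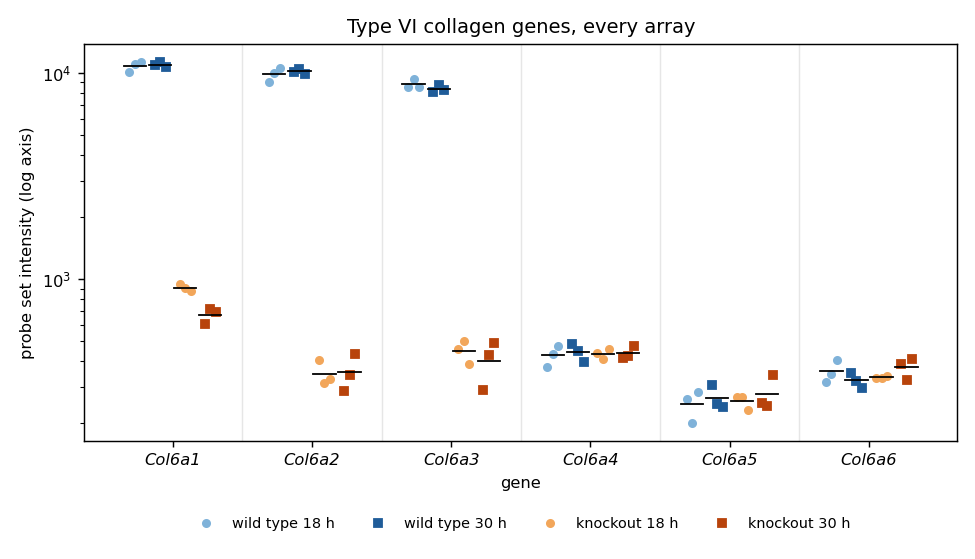
Intensity (log axis) of the 6 type VI collagen genes on every array, with the group mean as a bar. In Col6a1, Col6a2 and Col6a3 the 6 knockout arrays are at 948 or lower and the 6 wild-type arrays at 8113 or higher, and in Col6a4, Col6a5 and Col6a6 the groups overlap.

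Col6a1 and Col6a2 are direct neighbours on chromosome 10 in the RefSeq gene order (GRCm38.p6), with no protein-coding gene between them, and Col18a1, which was higher in knockout, lies 2 protein-coding genes beyond Col6a1. Col6a3 lies on chromosome 1. The sequence upstream of each start is given because these 3 genes had the largest differences of the family together while lying at 2 places in the genome. Each run is the 250 bases before the gene's start in RefSeq (GRCm38.p6), 5′ to 3′ on the gene's own strand, the minus strand for all 3. Col6a1 is at chr10:76726045-76726294, Col6a2, for the farther upstream of its 2 starts, at chr10:76623631-76623880, and Col6a3 at chr1:90843972-90844221. Capitals mark matches, on either strand, to the GC box letters GGGCGG, to the CCAAT box, to the TATA box letters TATAAA, or to CACGTG, the E-box known from circadian genes.
Col6a1: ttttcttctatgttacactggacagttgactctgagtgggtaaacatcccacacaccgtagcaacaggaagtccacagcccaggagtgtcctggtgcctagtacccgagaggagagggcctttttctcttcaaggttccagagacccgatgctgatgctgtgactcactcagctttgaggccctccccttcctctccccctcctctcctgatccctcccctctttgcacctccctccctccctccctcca
Col6a2: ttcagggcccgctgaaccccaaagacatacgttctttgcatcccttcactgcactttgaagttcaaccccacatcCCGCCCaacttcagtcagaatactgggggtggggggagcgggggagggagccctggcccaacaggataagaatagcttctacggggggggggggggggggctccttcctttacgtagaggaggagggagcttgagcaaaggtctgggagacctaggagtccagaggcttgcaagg
Col6a3: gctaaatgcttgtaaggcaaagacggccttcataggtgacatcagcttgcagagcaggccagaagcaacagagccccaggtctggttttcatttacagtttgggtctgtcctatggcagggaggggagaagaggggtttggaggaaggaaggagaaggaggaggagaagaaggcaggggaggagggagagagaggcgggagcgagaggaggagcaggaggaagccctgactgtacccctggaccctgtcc

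The windows of Col6a1 and Col6a3 hold none of the 4 motifs and the printed one of Col6a2 holds 1 GC box. The window of the other Col6a2 start holds 3 GC boxes and 14 CpG dinucleotides. The printed windows hold 3, 6 and 3 CpG dinucleotides, where the median over 32851 RefSeq windows of the same length was 6 (quartiles 2 and 16). Of the 38 windows of the 35 collagen genes in the table, 22 (57.9%) hold a GC box, against 32.7% of all windows, 13 (34.2%) a CCAAT box against 33.8%, and 5 (13.2%) a TATA box against 12.4%. No collagen window holds the E-box, which 6.02% of all windows hold. A match is a string of letters and not a shown site. Col12a1, Col14a1, Col1a1, Col22a1, Col26a1, Col2a1, Col4a3, Col5a2 and Col9a3 had no entry in the table.

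Fibrillar collagens moved in both directions. All 11 genes were tested. At 18 h 5 were higher and 2 lower, with a median log2 difference of 0.11, and at 30 h 4 were higher and 3 lower, with a median of 0.10. Those called were 63.6% of the class at each time, where 60.1% and 52.9% of all genes were called, also in both directions. The lower ones at both times were Col3a1, the single chain of type III collagen, and Col5a2, a chain of type V collagen, which regulates fibril diameter. The type I chains Col1a1 and Col1a2, the main fibril-forming collagen, were higher at both times by less than 1.5-fold.

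Col3a1 had 3009, 3335 and 3436 (18 h) and then 2735, 3013 and 2663 (30 h) in wild type, and 610.1, 483 and 567 (18 h) and then 498, 668 and 639 (30 h) in knockout. No array of one genotype reached the other. The log2 difference was -2.53 ± 0.110 at 18 h (5.77-fold, adjusted p = 3.74e-12) and -2.20 ± 0.110 at 30 h (4.59-fold, adjusted p = 2.68e-11). Col5a2 had 2378, 2852 and 2371 (18 h) and then 2063, 2343 and 2176 (30 h) in wild type, against 727, 863 and 857 and then 649.9, 783 and 758 in knockout. It was lower by a log2 difference of -1.61 ± 0.099 (adjusted p = 3.73e-10) and -1.57 ± 0.099 (adjusted p = 6.42e-10). Col3a1 and Col5a2 are also direct neighbours, on chromosome 1. The other type V chains did not share this size of difference. Col5a1, which pairs with Col5a2 in the common form of type V, was at -0.09 at 18 h (adjusted p = 0.348) and lower by -0.28 ± 0.079 at 30 h (adjusted p = 0.00668). Col5a3, the rarer chain of this type, was higher at 18 h, with 492, 569 and 524 in knockout and 344, 394 and 385 in wild type (0.48 ± 0.095, adjusted p = 0.000339). At 30 h its arrays overlapped, at 325 to 388 in knockout and 326 to 368 in wild type.

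Col1a1 had 6095, 6676 and 6393 (18 h) and then 6171, 6710 and 6292 (30 h) in wild type. In knockout it had 9527, 9358 and 8694 at 18 h and 7524, 8964 and 8365 at 30 h, above every wild-type array. Its log2 differences were 0.52 ± 0.065 (adjusted p = 2.37e-06) and 0.37 ± 0.065 (adjusted p = 0.000127). Col1a2 had 6128, 7198 and 6989 in wild type against 8340, 7663 and 7408 in knockout at 18 h, and 6438, 6744 and 6430 against 6905, 7843 and 7537 at 30 h. The difference was 0.21 ± 0.068 at 18 h (adjusted p = 0.0148) and 0.18 ± 0.068 at 30 h (adjusted p = 0.0323). These Col1a2 calls were near the threshold. The 18 h call ended under quantile scaling (0.16, adjusted p = 0.116) and cyclic loess scaling (0.17, adjusted p = 0.0736), and without wild-type replicate 1 (0.14, adjusted p = 0.097) or knockout replicate 1 (0.16, adjusted p = 0.0693) of 18 h. The 30 h call ended under all 3 scalings tried (0.14 to 0.16), with no intensity trend (0.18), and without wild-type replicate 1 (0.17) or 3 (0.17) or knockout replicate 2 (0.14) or 3 (0.17) of 30 h.

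Of the minor fibrillar chains, Col11a1, a type XI chain best known from cartilage, had 289, 228 and 296 in wild type against 544, 573 and 547 in knockout at 18 h (1.00 ± 0.106, adjusted p = 3.7e-07). The arrays of 30 h had 288, 256 and 257 against 357, 381 and 431 (0.52 ± 0.106, adjusted p = 0.000535). Col27a1 was higher by 0.30 ± 0.104 at 18 h (adjusted p = 0.0207), a call that ended without wild-type 18 h replicate 2 (0.24) or knockout 18 h replicate 1 (0.25), and by 0.44 ± 0.104 at 30 h (adjusted p = 0.0019). Col2a1, Col11a2 and Col24a1 were called at neither time. Of 8 chondrocyte markers 3 were tested and 1 was called, Sox9, a transcription factor gene of cartilage, at 605 ± 27.4 in wild type against 1565 ± 212 in knockout at 18 h and 557 ± 15.7 and 2325 ± 3.29 at 30 h (SD, n = 3 each). The summed level of the 8 was 1951 to 2012 and 1756 to 1913 in wild type at 18 h and 30 h and 2686 to 3113 and 3578 to 3865 in knockout. Sox9 made most of that rise, and the means of the other 7 summed to 1374 and 1263 in wild type and 1271 and 1361 in knockout. The part of these markers in the Col11a1 difference was not tested.

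The upstream windows of Col3a1 and Col1a2, given to set the fibrillar chain that was lowest in knockout beside one that was slightly higher, are at chr1:45311288-45311537 and chr6:4505368-4505617, both on the plus strand (RefSeq, GRCm38.p6), with the same 4 motifs in capitals.
Col3a1: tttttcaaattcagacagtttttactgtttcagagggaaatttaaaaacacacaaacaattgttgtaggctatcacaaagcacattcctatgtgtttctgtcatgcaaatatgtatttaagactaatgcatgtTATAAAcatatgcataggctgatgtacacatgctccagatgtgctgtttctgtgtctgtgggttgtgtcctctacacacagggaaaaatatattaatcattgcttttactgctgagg
Col1a2: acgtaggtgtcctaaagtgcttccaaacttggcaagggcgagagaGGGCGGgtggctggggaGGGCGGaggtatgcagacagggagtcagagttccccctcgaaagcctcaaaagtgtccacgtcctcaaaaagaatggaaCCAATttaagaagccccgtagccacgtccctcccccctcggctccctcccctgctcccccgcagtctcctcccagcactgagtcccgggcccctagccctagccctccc

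The Col3a1 window holds 1 TATA box match and 0 CpG dinucleotides, and the Col1a2 window holds 2 GC boxes, 1 CCAAT box and 11 CpG dinucleotides.

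Among the basement membrane collagens 1 of 5 tested genes, Col4a2, was higher in knockout at 18 h and lower at 30 h. Col4a1 and Col4a2 encode the common type IV molecule of most basement membranes, and the genes lie head to head on chromosome 8, with RefSeq windows around their starts (300 bases each) that overlap by 78 bases. Col4a1 had 1958, 2026 and 2042 in wild type against 2058, 2251 and 2330 in knockout at 18 h (0.14 ± 0.070, adjusted p = 0.107). By 30 h the values were 2275, 2447 and 2358 against 1672, 1871 and 1772, so that knockout was the lower, at -0.41 ± 0.070 (adjusted p = 0.000101). Col4a2 had 1729, 1823 and 1890 in wild type against 2027, 2256 and 2395 in knockout at 18 h, higher by 0.29 ± 0.076 (adjusted p = 0.0031). The 30 h arrays had 2161, 2331 and 2217 against 1563, 1725 and 1639, lower by -0.44 ± 0.076 (adjusted p = 9.92e-05). For both genes the knockout arrays lay above all wild-type arrays at 18 h and below all of them at 30 h. Col4a2 was the only collagen gene called higher at 18 h and lower at 30 h, as were 0.781% of all genes. The 18 h difference of Col4a1 passed under quantile scaling (0.19, adjusted p = 0.0199), cyclic loess scaling (0.18, adjusted p = 0.0307), equal array medians (0.20, adjusted p = 0.0319) and array weights (0.17, adjusted p = 0.00946), and without knockout 18 h replicate 1 (0.19, adjusted p = 0.0274).

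Col4a5, a chain of the type IV network best known from the kidney, had 652, 756 and 666 in wild type against 978, 1037 and 1031 in knockout at 18 h (0.55 ± 0.088, adjusted p = 4.13e-05). Later, at 30 h, it had 629.6, 702 and 626 against 700, 785 and 811, which overlap, and the call there (0.22 ± 0.088, adjusted p = 0.0417) ended with equal array medians (0.20), with no filter (0.22) and without wild-type replicate 1 (0.20) or 3 (0.20), knockout replicate 2 (0.20) or 3 (0.18) of 30 h, or knockout 18 h replicate 2 (0.22). Col4a3 and Col4a4 were not called. In the class 2 of 5 tested genes were higher and 0 lower at 18 h, also at an unadjusted p under 0.05 by limma, and 1 was higher and 2 lower at 30 h. That is 40% called at 18 h and 60% at 30 h, beside 60.1% and 52.9% of all genes.

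FACIT collagens, which lie on the surface of fibrils, were mostly without a call, with 2 of 9 higher at 18 h, 1 of 9 higher at 30 h and 0 lower at either time, also at an unadjusted p under 0.05 by limma. The shares called were 22.2% and 11.1%, beside 60.1% and 52.9% of all genes. Col12a1, the FACIT of dense connective tissue, had 1981, 2360 and 1761 in wild type against 3142, 3228 and 3045 in knockout at 18 h (0.63 ± 0.100, adjusted p = 3.72e-05). At 30 h it had 2385, 2519 and 2237 against 1791, 2217 and 2182, with knockout below wild type in every array (-0.21 ± 0.100, adjusted p = 0.0917). That value passed with equal array medians (-0.24, adjusted p = 0.0317), with array weights (-0.17, adjusted p = 0.0461) and with only the arrays compared (-0.21, adjusted p = 0.0485). Col16a1 had 439, 476 and 484 in wild type against 649, 643 and 694 in knockout at 18 h (0.49 ± 0.089, adjusted p = 0.000133), and was higher by 0.29 ± 0.089 at 30 h (adjusted p = 0.0115), a call that ended without wild-type replicate 3 (0.25) or knockout replicate 3 (0.23) of 30 h.

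Of the 12 other collagens 3 were higher and 2 lower at 18 h, and 3 were higher and 1 lower at 30 h. These are 41.7% and 33.3% called, beside 60.1% and 52.9% of all genes. Col8a1 encodes a short network-forming chain of vessel walls and other tissues, and had the largest rise in the family. It had 1485, 1553 and 1144 in wild type against 4980, 5054 and 4929 in knockout at 18 h, a log2 difference of 1.84 ± 0.090 (3.58-fold, adjusted p = 1.93e-11). At 30 h it had 1858, 1752 and 1755 against 3738, 3888 and 4064, a difference of 1.12 ± 0.090 (2.17-fold, adjusted p = 1.66e-08). Its partner chain Col8a2 ranged from 157 to 246 over all arrays and was not called. Col18a1, a basement membrane proteoglycan collagen whose end fragment is endostatin, had 1365, 1467 and 1390 in wild type against 2828, 2923 and 3069 in knockout at 18 h (1.05 ± 0.072, adjusted p = 1.62e-09). At 30 h it had 1240, 1309 and 1441 against 2171, 2208 and 2074 (0.69 ± 0.072, adjusted p = 4.53e-07). Col7a1, the anchoring fibril collagen, was higher by 0.41 ± 0.108 (adjusted p = 0.00329) and 0.37 ± 0.108 (adjusted p = 0.00801), with 337 to 376 in wild type against 467 to 493 in knockout at 18 h.

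Col10a1, the short-chain collagen of hypertrophic cartilage, had 415, 333 and 313 (18 h) and then 323, 325 and 417 (30 h) in wild type, and 130.4, 78.2 and 62.8 (18 h) and then 76.5, 80.9 and 86.5 (30 h) in knockout. Its knockout means were below the filter on dim genes, so it was tested only through its wild-type level, and its place in the counts above is no support for them. Its log2 differences were -1.84 at 18 h and -1.92 at 30 h, and in a fit of all 19938 genes with no filter limma's adjusted p was 5.89e-08 and 4.07e-08. It lay near the filter on dim genes and was not tested with an offset of 1, with the filter at the 50th percentile or without any one of the 6 wild-type arrays. Col28a1, singled out after its values were seen, was lower at 18 h by -0.38 ± 0.117 (adjusted p = 0.0102), which ended without wild-type 18 h replicate 1 (-0.32), and was at -0.15 at 30 h (adjusted p = 0.296), which passed with array weights (-0.26, adjusted p = 0.00905) and without knockout 30 h replicate 3 (-0.29, adjusted p = 0.0283).

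No other tested collagen gene had both means of a genotype below the filter. Without Col10a1 the counts were 12 higher and 6 lower of 42 at 18 h and 9 higher and 8 lower at 30 h.

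Counted over both times, 6 of 43 collagen genes were called lower at each (Col3a1, Col5a2, Col6a1, Col6a2, Col6a3 and Col10a1; 5 of 42 without Col10a1), as were 23.4% of all genes. Another 9 were called higher at each (Col1a1, Col1a2, Col4a5, Col7a1, Col8a1, Col11a1, Col16a1, Col18a1 and Col27a1), as were 18.9% of all genes. The 6 lower ones, with Col10a1 among them, all differed by at least 2-fold at both times. Taking each time alone, 8.07% of all genes were called lower by at least 2-fold at 18 h and 6.23% at 30 h. The share of all genes that did so at both times was not computed, so these shares are no like measure.

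**Figure D3:**
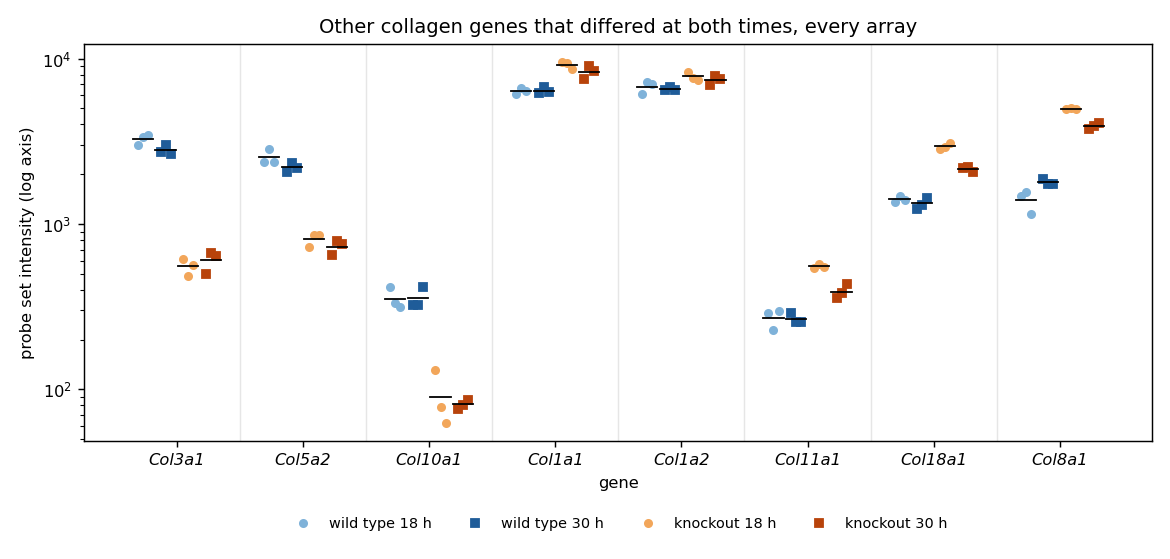
Intensity (log axis) of 8 collagen genes outside type VI that were called in the same direction at both times, on every array, with the group mean as a bar. Knockout arrays lie below wild type for Col3a1, Col5a2 and Col10a1, and above it for Col1a1, Col1a2, Col11a1, Col18a1 and Col8a1, with the smallest gap in Col1a2.

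The Col8a1 window, shown as that of the gene with the largest rise, is at chr16:57754738-57754987 on the minus strand (RefSeq, GRCm38.p6).
Col8a1: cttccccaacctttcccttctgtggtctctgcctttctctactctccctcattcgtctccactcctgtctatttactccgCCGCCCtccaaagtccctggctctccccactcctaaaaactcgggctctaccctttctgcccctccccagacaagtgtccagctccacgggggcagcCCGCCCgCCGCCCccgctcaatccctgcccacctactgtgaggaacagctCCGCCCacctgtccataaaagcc

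It holds 4 GC boxes and none of the other 3 motifs, and 10 CpG dinucleotides.

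Time moved few collagen genes in wild type. Between 18 h and 30 h 2 of 43 rose and 0 fell, against 4 and 1 at an unadjusted p under 0.05 by limma, and 3.96% of all genes were called, 2.41% rising and 1.55% falling. The arrays of the times did not overlap in 4 members, against 25.6% of all genes. Col8a1 rose by 0.37 ± 0.090 (adjusted p = 0.0324) and Col4a2 by 0.30 ± 0.076 (adjusted p = 0.0364). Both calls were near the threshold. The rise of Col8a1 missed it with no intensity trend (adjusted p = 0.0561), under cyclic loess scaling (0.34, adjusted p = 0.0575), without wild-type 30 h replicate 1 (0.34, adjusted p = 0.139), 2 (0.38, adjusted p = 0.0719) or 3 (0.38, adjusted p = 0.104), and without knockout 30 h replicate 2 (adjusted p = 0.0531). That of Col4a2 missed it with no intensity trend (adjusted p = 0.055), without wild-type 18 h replicate 1 (0.27, adjusted p = 0.132) or 2 (0.30, adjusted p = 0.104), wild-type 30 h replicate 1 (0.32, adjusted p = 0.0922), 2 (0.27, adjusted p = 0.124) or 3 (0.31, adjusted p = 0.122), and without replicate 2 of knockout at 18 h (adjusted p = 0.0535) or 30 h (adjusted p = 0.0548). Col4a1 was at 0.23 ± 0.070 (adjusted p = 0.0774), with all 3 arrays of 30 h above those of 18 h, and passed with equal array medians (0.30, adjusted p = 0.0387), with array weights (0.26, adjusted p = 0.00927) and without knockout 18 h replicate 1 (0.23, adjusted p = 0.0358).

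In knockout 11 of 43 collagen genes fell with time and 0 rose, against 12 and 0 at an unadjusted p under 0.05 by limma. Over all genes 39.3% were called, 18.4% falling and 20.9% rising. Cell type markers moved over the same interval. In knockout the macrophage gene Cd68 went from 2305 ± 873 to 805 ± 108, while Cd14 of the same list went from 185 ± 6.95 to 282 ± 52.3. S100a4 went from 2054 ± 586 to 4065 ± 725 and Sox9 from 1565 ± 212 to 2325 ± 3.29 in knockout. The smooth muscle actin gene Acta2 went from 1163 ± 213 to 5182 ± 779.8 in wild type and from 4112 ± 647 to 5833 ± 391 in knockout. Other markers of its list went down in knockout, Mcam from 928 ± 159 to 538 ± 11.5 and Des from 1354 ± 84.9 to 865 ± 177 (SD, n = 3 each). Their part in the changes of collagen genes with time was not tested. The members that fell came from every class, with 3 fibrillar, 3 basement membrane, 1 type VI, 2 FACIT and 2 other genes. Col12a1 fell by 0.61 ± 0.100 (adjusted p = 0.000179), Col5a3 by 0.55 ± 0.095 (adjusted p = 0.000274), Col11a1 by 0.50 ± 0.106 (adjusted p = 0.00139) and Col18a1 by 0.45 ± 0.072 (adjusted p = 0.000151). Col4a2 fell by 0.43 ± 0.076 (adjusted p = 0.000283), Col6a1 by 0.43 ± 0.073 (adjusted p = 0.000206), Col4a5 by 0.40 ± 0.088 (adjusted p = 0.00165) and Col8a1 by 0.36 ± 0.090 (adjusted p = 0.00496). The remaining falls were Col5a1 by 0.33 ± 0.079 (adjusted p = 0.00341), Col4a1 by 0.32 ± 0.070 (adjusted p = 0.00184) and Col16a1 by 0.31 ± 0.089 (adjusted p = 0.00994), and the last ended without knockout 30 h replicate 1 (-0.25, adjusted p = 0.0597). In each of the 11 every array of 30 h lay below every array of 18 h, and 12 of 43 members did not overlap in either direction, against 46.2% of all genes. A change of at least 2-fold was called in 0 members for time in wild type and 0 in knockout, and in 0 for the difference of time effects described next, against 0.043%, 1.9% and 1.74% of all genes. Col1a1 was at -0.15 ± 0.065 (adjusted p = 0.0748), which passed with equal array medians (-0.17, adjusted p = 0.0477), under cyclic loess scaling (-0.21, adjusted p = 0.0387), and without knockout 18 h replicate 3 (-0.19, adjusted p = 0.0486) or 30 h replicate 2 (-0.21, adjusted p = 0.0259). Of the type VI chains Col6a2 and Col6a3 did not pass, and their knockout arrays of the 2 times overlapped.

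The time effects of the genotypes differed in 8 of 43 collagen genes, all lower in knockout, and 0 the other way, also at an unadjusted p under 0.05 by limma, which gave 9 and 0. Over all genes 20.3% differed, 10.1% lower and 10.2% higher in knockout. For Col12a1 the difference of time effects, knockout minus wild type, was -0.84 ± 0.142 (adjusted p = 0.000943). For Col4a2 it was -0.73 ± 0.107 (adjusted p = 0.000353), for Col8a1 -0.72 ± 0.128 (adjusted p = 0.00119) and for Col4a1 -0.55 ± 0.099 (adjusted p = 0.00142). Col8a1 and Col4a2 rose with time in wild type and fell in knockout, a pattern called in 0.416% of all genes. Col11a1 (-0.48 ± 0.149, adjusted p = 0.0318), Col6a1 (-0.46 ± 0.103, adjusted p = 0.00547), Col5a3 (-0.44 ± 0.135, adjusted p = 0.0295) and Col18a1 (-0.36 ± 0.102, adjusted p = 0.0196) fell in knockout and were not called with time in wild type. The count of 8 became 5 without knockout 18 h replicate 3, when Col11a1 (-0.49, adjusted p = 0.0551), Col5a3 (-0.45, adjusted p = 0.0541) and Col18a1 (-0.33, adjusted p = 0.0568) missed the threshold. The Col11a1 value also missed it without knockout 18 h replicate 2 (-0.46), knockout 30 h replicate 1 (-0.42) or 2 (-0.47), wild-type 18 h replicate 2 (-0.37) or wild-type 30 h replicate 1 (-0.43), and that of Col18a1 without wild-type 30 h replicate 3 (-0.31). The Col5a3 value missed it without knockout 18 h replicate 2 (-0.39), knockout 30 h replicate 1 (-0.38) or 2 (-0.45), wild-type 18 h replicate 1 (-0.39) or wild-type 30 h replicate 1 (-0.40) or 2 (-0.44).

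**Figure D4:**
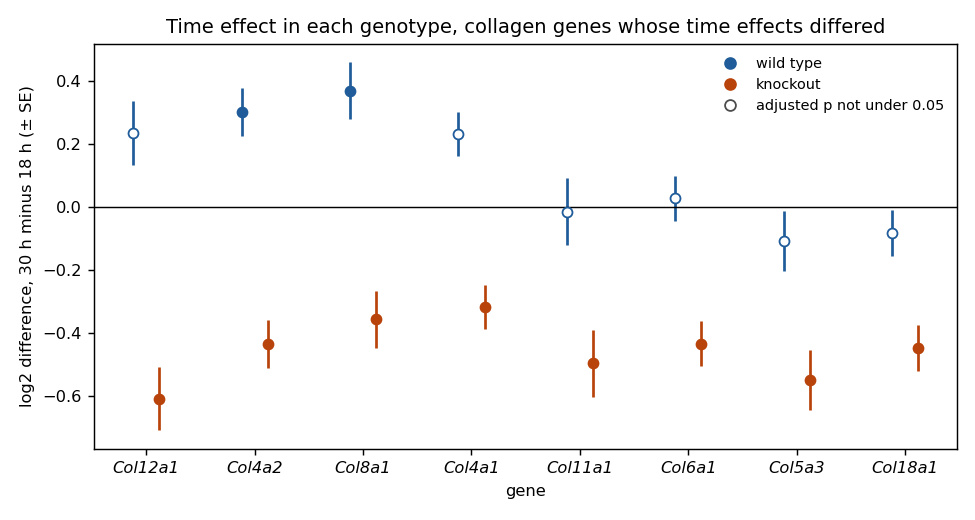
Log2 difference between 30 h and 18 h, with its standard error (vertical axis), in wild type and in knockout, for the 8 collagen genes whose time effects differed between genotypes. Filled points had an adjusted p under 0.05, and the knockout points lie between -0.61 and -0.32.

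The other 22 tested collagen genes were called in none of the comparisons between single groups or of time effects. They were dimmer, with means over all arrays of 182 to 739.8 (median 329), against 209 to 7564 (median 1805) for the 21 called in at least one comparison. They include the cartilage collagens Col2a1, Col9a1, Col9a2 and Col9a3, the transmembrane collagens Col13a1, Col17a1, Col23a1 and Col25a1, and the multiplexin Col15a1. Their log2 differences between genotypes ran from -0.16 (Col20a1) to 0.14 (Col4a4) at 18 h and from -0.11 (Col20a1) to 0.27 (Col23a1) at 30 h, with standard errors of 0.0863 to 0.144. These genes shifted together from array to array. In wild type at 30 h replicate 1 was the highest array for 22 of 22, against 44.8% of the 6362 tested genes in the same range of means, and in knockout at 30 h replicate 3 was the highest for 22 of 22, against 55.6%. The median shift from the group mean was 0.14 and 0.17 on the log2 scale on these arrays. Among the 7417 brighter genes those shares were 13.7% and 21.3%. The 22 were taken for having no call, while the genes set beside them include called ones, and uncalled genes alone were not compared. Whether these shifts come from RNA, hybridisation or the authors' scaling was not tested.

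**Figure D5:**
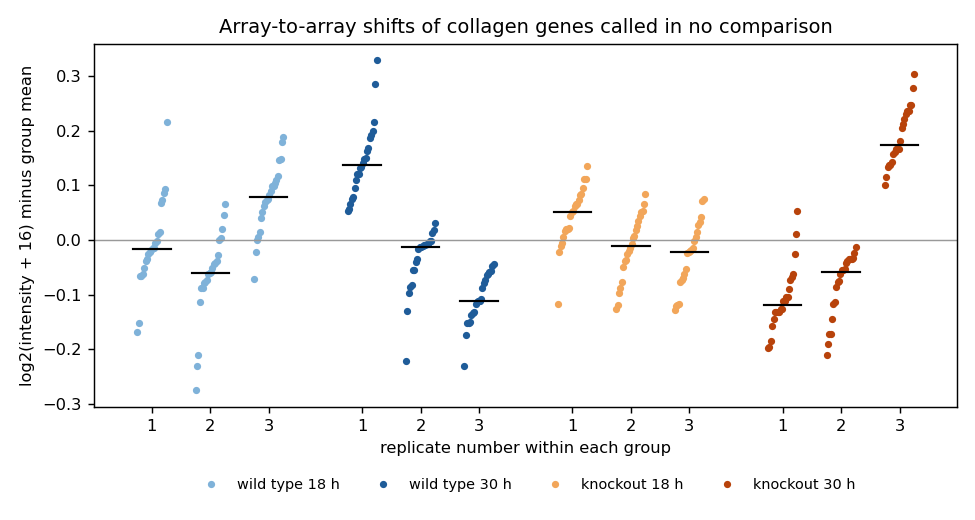
Deviation of log2(intensity + 16) from the group mean (vertical axis) on each array, by replicate number within the 4 groups (horizontal axis), for the 22 tested collagen genes without a call. Points are genes and bars are medians, which are 0.14 for wild-type 30 h replicate 1 and 0.17 for knockout 30 h replicate 3.

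Genes that make, secrete and anchor collagen chains were described from 4 lists, with counts called between genotypes read against the 60.1% and 52.9% of all genes. Of 18 genes for chain modification and folding 17 were measured and 16 tested, with 6 higher and 7 lower at 18 h (median 0.03) and 5 higher and 7 lower at 30 h (median -0.04). The prolyl hydroxylase subunit P4ha3 went from 71.1 ± 10.6 in wild type to 723 ± 182 in knockout at 18 h (SD, n = 3 each), a log2 difference of 3.06. At 30 h it differed by 3.49, or by 2.88 with an offset of 64. Its wild-type means were below the filter, so it was tested only through its knockout level, and with no filter limma gave adjusted p = 1.69e-12 and, at 30 h, adjusted p = 2.99e-13. The place of P4ha3 in the counts of this list is therefore no support for them. The lysyl hydroxylase Plod2 was higher by 1.42 (adjusted p = 1.11e-11) and P4ha2 by 1.12 (adjusted p = 1.64e-09) at 18 h, while the prolyl isomerase Fkbp14 was at -1.59 (adjusted p = 8.97e-11), the prolyl 3-hydroxylase P3h2 at -1.42 (adjusted p = 1.43e-09) and Plod3 at -0.53 (adjusted p = 1.27e-05).

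Of 8 genes for secretion and its regulation 7 were measured and 6 tested, with 4 higher and 2 lower at 18 h and 3 higher and 1 lower at 30 h (medians 0.30 and 0.07). The coat gene Sec24d was higher by 0.58 at 18 h (adjusted p = 1.21e-06), Creb3l1, a transcription factor gene of collagen secretion, by 0.45 (adjusted p = 9.34e-05) and Tmem38b by 0.43 (adjusted p = 0.000557), and Mia3, the procollagen cargo receptor, was at -0.68 (adjusted p = 7.12e-07). At 30 h Creb3l1 was higher by 0.21 (adjusted p = 0.0315), which ended with equal array medians (0.18) and without knockout replicate 2 (0.17) or wild-type replicate 3 (0.16) of 30 h. Tmem38b was higher there by 0.25 (adjusted p = 0.0291), which ended with equal array medians (0.22), with the mean of its probe sets (0.20) and without knockout replicate 1 (0.20) or 2 (0.24) or wild-type replicate 1 (0.21) or 3 (0.23) of 30 h.

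Of 13 genes for propeptide processing and crosslinking 11 were measured and 9 tested, with 3 higher and 5 lower at both times (medians -0.37 and -0.28). The enhancers of procollagen C-proteinase Pcolce2 and Pcolce were lower, Pcolce2 from 4064 ± 299 to 695 ± 17.3 at 18 h (-2.52, adjusted p = 9.3e-14) and Pcolce by a log2 difference of -0.96 (adjusted p = 2.4e-10), whereas that proteinase, Bmp1, was higher by 0.80 (adjusted p = 1.4e-08). The lysyl oxidase family gene Loxl3 was at -1.86 (adjusted p = 4.35e-12) and Loxl4 at 0.45 (adjusted p = 0.00161), a call that ended with the mean of its probe sets (0.24). Of 8 collagen receptor genes 7 were tested, with 2 higher and 2 lower at both times (medians -0.07 and 0.12). The collagen-binding integrin chains Itga1 and Itga2 were higher by 1.93 and 1.81 at 18 h. Both passed the filter only through knockout, with wild-type means of 171 and 113 against 693 and 434 at 18 h, and with no filter limma's adjusted p was 2.32e-10 and 1.32e-10. The discoidin domain receptor Ddr2 and the collagen uptake receptor Mrc2 were at -0.72 (adjusted p = 3.93e-07) and -0.89 (adjusted p = 1.17e-07). With time in knockout 5 of the 7 receptors fell and 0 rose, also at an unadjusted p under 0.05 by limma, where 18.4% of all genes fell and 20.9% rose. The 7 include Itga1 and Itga2, whose knockout means went from 693 to 521 and from 434 to 332. Since both were tested only through knockout, their place in the receptor counts is no support for them.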

How the data were processed

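RNA (100 ng per sample, per the labels' protocols) was measured on Affymetrix arrays. The authors deposited 1 intensity per probe set and array on a linear scale. The submitters' processing notes name PLIER 2.0 and Affymetrix Expression Console 1.1 as tools, and the normalization between arrays and the genome build are not given in the sources used here. Of 35557 probe sets 21789 have 1 gene symbol in the platform annotation, 1621 several and 12147 none, and 21698 of those with 1 were matched to RefSeq (GRCm38.p6) for current names.

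Values were taken as log2(intensity + 16), 1 probe set per gene, and a filter at the 30th percentile of the means (log2 7.58) left 13956 genes for testing. The 4 group means were fitted over 12 arrays in R 4.3.3 by limma 3.58.1, using lmFit and then a trended eBayes (8 residual and 7.98 prior degrees of freedom), with two-sided tests and Benjamini-Hochberg adjustment over all genes tested. Collagen genes are named with values where called with arrays that do not overlap between genotypes at both times, or where called with time, and the others mostly by range. Of each pathway list up to 3 genes per direction, called and without overlap at both times, are named. The members, classes and lists were chosen with earlier results of these data known. Alternatives were offsets, filters, scalings, no trend, robust fits, array weights (whose estimation stopped before convergence), only the arrays compared, the mean of probe sets, a 2-fold threshold, a replicate block and each array left out. On simulated data for 13956 genes the fits recovered 98 and 95 of 100 genes changed by 1 on the log2 scale for knockout at 18 h and 30 h. For time they recovered 98 in wild type, 98 in knockout and 90 of those whose time effects differed. At a change of 0.5 they recovered 64 and 61 for knockout, 81 and 81 for time, and 27 whose time effects differed. Each simulation changed 100 genes of each size, while 60.1% and 52.9% of all genes were called for knockout in the data. Where few genes change the adjusted threshold is stricter, so these shares do not give the share missed here. The simulated noise was independent for each gene and array, while collagen genes without a call shifted together on single arrays in the data. Between 5 and 9 unchanged genes were called in each simulated comparison. Precision is limited by the number of arrays.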

Additional observations from a re-analysis of the deposited data

Results flagged for a closer look

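In 8 collagen genes the effect of time differed between the genotypes by a test of the difference itself (limma, adjusted p under 0.05), and all 8 were lower in knockout relative to wild type. They are 18.6% of the 43 tested, where 20.3% of all genes differed. The difference of time effects on the log2 scale was -0.84 for Col12a1, -0.73 for Col4a2, -0.72 for Col8a1, -0.55 for Col4a1, -0.48 for Col11a1, -0.46 for Col6a1, -0.44 for Col5a3 and -0.36 for Col18a1. The calls of Col11a1, Col5a3 and Col18a1 ended without knockout 18 h replicate 3 (-0.49, -0.45 and -0.33), and each also ended without some other single arrays. The 2 time effects of a gene share no arrays. Col12a1 had group means of 2034 ± 303 and 2380 ± 141 in wild type at 18 h and 30 h and 3138 ± 91.9 and 2063 ± 236 in knockout (SD, n = 3 each). Groups of 3 arrays were not screened for single outlying arrays.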

How the results depend on the processing

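Each count of collagen genes was recomputed under 26 alternatives. The 2-fold threshold among them was applied to the counts only, and values of single genes were recomputed under the others. Of 105 values of single genes 85 kept their direction and side of the threshold under every other alternative that gave a value, and of 2597 such values 64 lost the call, 17 gained it and 0 changed sign. Requiring a 2-fold difference left 8 collagen genes at 18 h, 7 at 30 h, 7 averaged over both times, and 0 with time in wild type, 0 with time in knockout and 0 whose time effects differed. The count for time in wild type was 1 under cyclic loess scaling and 0 with no intensity trend. Leaving out 1 array gave 16 to 19 calls at 18 h, 14 to 18 at 30 h, 18 to 21 averaged, 0 to 3 for time in wild type, 10 to 12 with time in knockout and 5 to 9 whose time effects differed. Same-numbered replicates deviated from their group means with correlations of -0.46 to 0.46, and whether they share a culture or a day is not known. The fit with the replicate number as a block gave the same counts, 19, 18, 20, 2, 11 and 8. Over all genes the share of higher calls for time in wild type was 60.9%, and 81.0% with equal array medians, and for the difference of time effects it was 50.3%, against 30.1% with equal medians and 37.4% under cyclic loess. Col10a1 gave no value where it fell below the filter. The causes of these changes were not tested. Without detection calls, how far dim genes lie above background is not known.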
